A study of Mus musculus with 6 samples.

Results

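Platelet-derived growth factor (PDGF) signalling was described through its 6 genes on the array, the ligand genes Pdgfa, Pdgfb, Pdgfc and Pdgfd and the receptor genes Pdgfra and Pdgfrb. A gene probe was taken as a member when its transcript identifier belonged to one of these genes, which held for 8 of 39429 gene probes. Pdgfa and Pdgfb had 2 probes each and the other 4 genes had 1 each, and the choice used no measured value. By its title the study is about energy metabolism in germ cell precursors, and the 6 arrays compared here hold 2 groups of 3 samples that the series calls biological replicates. The soma group is somatic cells from the genital ridges of E13.5 male embryos, a stage at which testis cords have formed, of the MCH x C57BL6/J background, which carry the transgene written Oct5<delta>PE-GFP Tg. The ESC group is VR15, a male embryonic stem cell line with the transgene Vasa::RFP Tg. The ESC samples are cultures of a single line, and the labels do not say how many embryos went into a soma sample. Both groups are male and carry a fluorescent reporter, so no reporter-free sample was compared.

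PDGF ligands are secreted dimers that bind and pair receptor tyrosine kinases on neighbouring cells, mostly mesenchymal cells, and drive their growth and migration. PDGF-A and PDGF-B are trimmed by furin-like proteases inside the cell, whereas PDGF-C and PDGF-D leave the cell with a CUB domain that proteases outside must remove. PDGF receptor alpha binds the A, B and C chains and PDGF receptor beta mainly the B and D chains. In the fetal testis receptor alpha is known for its part in cord formation and in the differentiation of fetal Leydig cells, and receptor beta marks mesenchyme and the mural cells of vessels. In the early embryo Pdgfra marks the primitive endoderm, while Pdgfa is made by the pluripotent epiblast.

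Signals are given as log2 values after subtraction of each array's 75th percentile, so 0 is that percentile. The percentile itself lay between 1245 and 1388 intensity units on the soma arrays and between 959 and 1016 on the ESC arrays. The scanner software marked 56.0% to 63.2% of the gene probes of an array as well above background and 0 gene spots as saturated. Sertoli markers (14 of 14 tested genes), fetal Leydig markers (10 of 10) and gonad interstitial markers (15 of 16) were higher in soma, and 15 of 15 pluripotency markers were higher in ESC, beside 38.3% and 46.6% of all genes. Of these soma markers 6 Sertoli, 3 Leydig and 3 interstitial genes were not well above background on any ESC array. Others, among them Nr2f2, were so on only part of the ESC arrays. All of these passed the filter on dim probes through soma alone, which fixed their direction. Of the pluripotency markers 1 was not well above background on any soma array and others on only 2. These passed through ESC alone. Markers of other cells were also higher in soma. They were 8 of 8 tested erythroid and platelet genes, 10 of 10 macrophage genes and 7 of 12 endothelial genes. Of these 5, 4 and 4 were not well above background on any ESC array, and others on only part of them. The filter fixed the direction of these genes too. Germ cell markers were split, with soma higher for 2 of 12, ESC for 5 and 5 not passing. The male germ cell gene Nanos2, higher in soma, was well above background on all 3 soma arrays and no ESC array, so the filter fixed its direction. Soma 1 and soma 2 lay on a slide of their own, soma 3 lay on the slide of the 3 ESC arrays, and each scan held arrays of a single group, which means that the effects of scan and group cannot be told apart. The number of arrays limits the precision.

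Both receptor genes and Pdgfd were higher in soma, while Pdgfa, Pdgfb and Pdgfc were higher in ESC. By limma with Benjamini-Hochberg adjustment over 19670 genes, 3 of 6 members were higher in soma, where the share of all genes was 38.3%. Another 3 of 6 were higher in ESC, where 46.6% were. The Pdgfd probe passed the filter on dim probes through soma alone, which fixed its direction in these counts. All 6 members thus passed in a comparison in which 84.9% of all genes passed, and the count alone says little about them. For every member the soma and ESC values were fully separated, which held for 87.2% of all genes. The median soma minus ESC difference was 1.21 over the 6 members and -0.14 over all genes. It rests on Pdgfd, whose ESC signal was not above background, and was 0.18 with Pdgfd at its bound and 0.080 under normexp background correction. The median was 6.26 over the 2 receptor genes and -0.82 over the 4 ligand genes. A call with a fitted difference of at least 2-fold was reached in soma by Pdgfra and Pdgfrb, where 23.2% of all genes did so, and in ESC by Pdgfa and narrowly by Pdgfb, where 24.2% did. Pdgfd is not counted, because its bound lies just under 2-fold. The shares of all genes use the fitted difference of every gene, by which Pdgfd, at 3.05, would count.

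**Figure D1:**
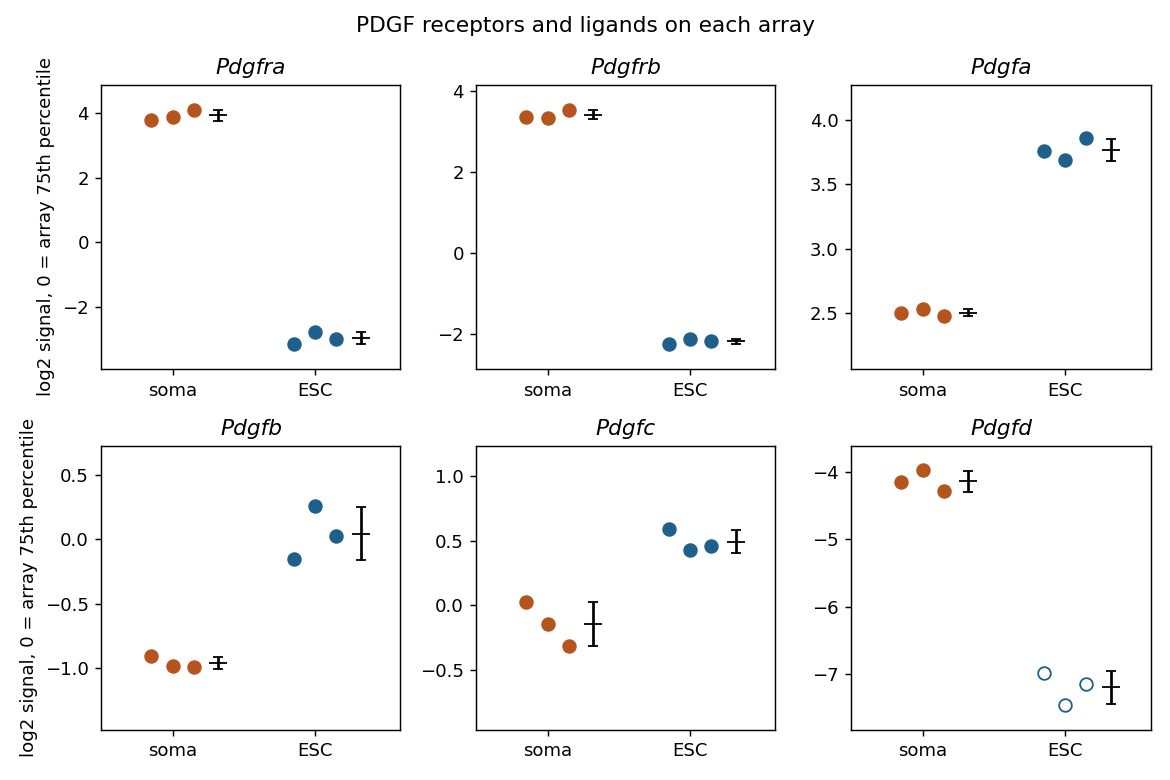
Log2 signal of the 6 PDGF genes on each array (vertical axis, 0 is the array's 75th percentile; the range differs between panels) for the 3 soma and the 3 ESC arrays, with the mean and SD beside the points. Open points mark arrays on which the probe was not well above background, which are the 3 ESC arrays of Pdgfd. Pdgfra, Pdgfrb and Pdgfd lie higher in soma, and Pdgfa, Pdgfb and Pdgfc higher in ESC.

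Upstream sequence from RefSeq was examined for 4 of the 6 genes, and not for Pdgfb or for the soma-high receptor gene Pdgfrb. It is shown for a receptor and a ligand gene that were higher in soma and for the ligand gene with the largest difference in the other direction. Each line holds the 250 bases before a transcription start, 5′ to 3′ on the gene's strand, in build GRCm38.p6. Capitals mark matches, on either strand, to 6 strings of letters. The promoter elements searched were the GC box, spelled GGGCGG, then the motif known as CCAAT, and the core promoter element spelled TATAAA. The strings for transcription factors were AGATAA and, differing at the start, TGATAA for GATA factors, and for the steroidogenic factor NR5A1 the letters CAAGGTCA. The windows are Pdgfra at chr5:75152001-75152250 on the plus strand, Pdgfd at chr9:6168236-6168485 on the plus strand, and the Pdgfa starts at chr5:138994282-138994531 (downstream start) and chr5:138994945-138995194 (upstream start) on the minus strand.
Pdgfra: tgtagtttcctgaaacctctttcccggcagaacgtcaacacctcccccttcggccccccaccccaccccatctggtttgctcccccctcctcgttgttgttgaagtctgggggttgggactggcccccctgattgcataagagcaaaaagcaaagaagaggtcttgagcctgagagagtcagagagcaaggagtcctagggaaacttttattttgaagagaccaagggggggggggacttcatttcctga
Pdgfd: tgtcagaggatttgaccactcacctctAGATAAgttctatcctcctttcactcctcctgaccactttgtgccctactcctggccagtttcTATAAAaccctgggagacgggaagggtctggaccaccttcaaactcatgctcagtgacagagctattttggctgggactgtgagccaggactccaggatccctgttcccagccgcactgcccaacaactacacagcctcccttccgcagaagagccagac
Pdgfa downstream: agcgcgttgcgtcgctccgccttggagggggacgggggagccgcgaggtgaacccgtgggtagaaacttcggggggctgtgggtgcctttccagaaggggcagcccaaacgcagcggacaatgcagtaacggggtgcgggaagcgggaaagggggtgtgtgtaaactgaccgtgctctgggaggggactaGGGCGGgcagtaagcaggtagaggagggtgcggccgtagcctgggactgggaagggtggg
Pdgfa upstream: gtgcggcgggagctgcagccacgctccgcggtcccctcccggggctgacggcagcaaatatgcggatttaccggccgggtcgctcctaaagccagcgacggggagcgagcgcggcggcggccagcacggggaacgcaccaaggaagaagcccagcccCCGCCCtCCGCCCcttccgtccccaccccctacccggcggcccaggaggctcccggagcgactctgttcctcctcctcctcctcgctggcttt

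The windows of the ESC-high ligand gene Pdgfa were rich in G and C, at 66.4% and 72.4%, with 19 and 28 CpG dinucleotides. The soma-high genes Pdgfra and Pdgfd had 54.4% and 53.6% G and C with 4 and 3 CpG, and Pdgfc, whose window is not printed, had 50.8% with 3 CpG. The median of 32851 promoter windows of this length was 52.4% G and C and 6 CpG. GGGCGG occurred at position -60 of the downstream start, counted from the transcription start, and in reverse at -93 and -86 of the upstream start, and 32.7% of all windows held it. The Pdgfd window held TATAAA at -160 and AGATAA at -223, found in 12.4% and 9.99% of all windows. The Pdgfra and Pdgfc windows held none of the 6 letter strings. The CCAAT string, found in 33.8% of all windows, was in none of the 5 windows of these genes. The TGATAA string (7.94% of all windows) and the NR5A1 string (1.33%) were in none of them either. These are matches of letters and no evidence of binding.

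Pdgfra, the gene of PDGF receptor alpha, had the largest difference of the 6 genes. Its log2 signal on the soma arrays was 3.79, 3.89 and 4.11, in replicate order, and on the ESC arrays -3.17, -2.80 and -2.99. The soma arrays stood far above the array's 75th percentile and the ESC arrays far below it, with a wide gap between the groups. The processed signal was 18490.5, 20546 and 21519 intensity units in soma against 113, 140.3 and 120.5 in ESC. Pdgfra was 121-fold higher in soma (log2 difference 6.91 ± 0.13, SE, n = 3 per group, limma adjusted p 2.69e-07). Under normexp background correction it was 74.4-fold higher. By the 75th percentile scaling 121 of 19670 genes (0.615%) were higher in soma by more. In a bulk sample a larger share of cells that express a gene and more RNA per such cell cannot be told apart, here and for every gene below. The array carries this probe on 10 spots, and in ESC all 10 were well above background on each array.

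The 10 spots gave the technical error of the Pdgfra measurement within an array. Their SD was 0.037 to 0.056 on the soma arrays and 0.092 to 0.12 on the ESC arrays, on the log2 scale. The SD between arrays was 0.16 in soma and 0.19 in ESC (n = 3 each), which holds the differences between samples as well as those between slides and scans. On soma 3 the lowest spot, at 4.05, lay above the highest spot of soma 1 (3.87) and of soma 2 (3.97). Soma 3, which lay on another slide and in another scan than soma 1 and soma 2, was also highest for Pdgfrb. The median deviation of interstitial markers from the soma mean was -0.03, -0.06 and 0.08 on soma 1 to 3, that of Sertoli markers 0.17, -0.01 and -0.15, and that of germ cell markers -0.52, 0.02 and 0.48. Pdgfra deviated by -0.14, -0.04 and 0.18 on the same arrays. What these lists have to do with the deviations of Pdgfra was not tested.

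**Figure D2:**
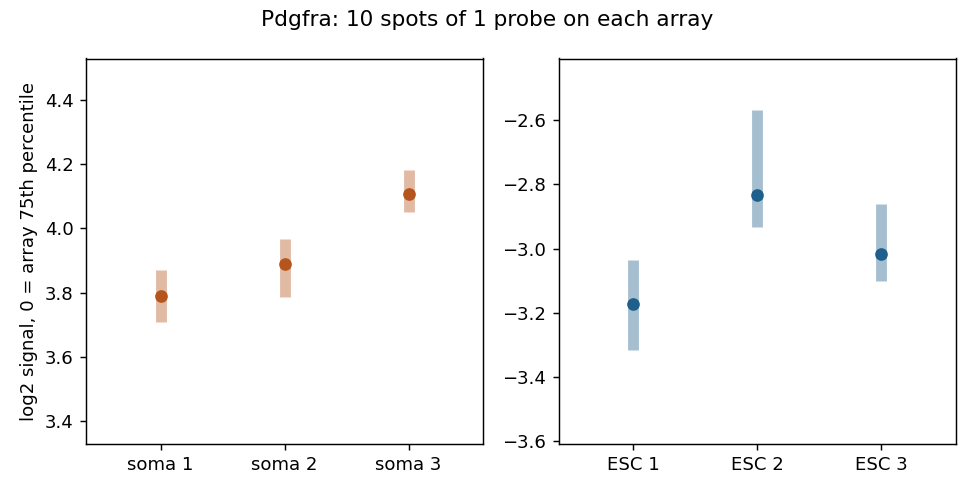
Log2 signal of the 10 Pdgfra spots on each array, with bars from the lowest to the highest spot and points at the median. Both panels span the same number of log2 units at different levels. The bar of soma 3 (4.05 to 4.18) does not touch those of soma 1 and soma 2.

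Pdgfrb, the gene of PDGF receptor beta, was also much higher in soma. Soma gave log2 signals of 3.37, 3.35 and 3.55, and ESC gave -2.25, -2.11 and -2.18. The spread within each group was a small fraction of the gap between them. Pdgfrb was 48.5-fold higher in soma (log2 difference 5.60 ± 0.076, SE, n = 3 per group, limma adjusted p 1.6e-07), and 283 genes (1.44%) were higher in soma by more. All 3 ESC arrays, at processed signals of 211.3 to 226, were still marked well above background.

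The receptors differed in how far they fell from soma to ESC. The log2 ratio of Pdgfra to Pdgfrb within an array, which a single factor per array cannot change, was higher in soma than in ESC by 1.31. Its values did not overlap between the groups. The two-sided exact permutation p was 0.1, the smallest that 3 arrays against 3 allow, or 0.15 after adjustment over the 3 ratios computed. Quantile normalization and normexp can change this ratio. The differences of Pdgfra and Pdgfrb were 7.11 and 5.76 under the first and 6.22 and 5.22 under the second. Levels of different probes are not compared, since their efficiency differs, so the 6 genes are given no order of abundance.

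Pdgfa, the ligand gene whose product acts through receptor alpha alone, was higher in ESC on both of its probes. The brighter probe read 2.51, 2.53 and 2.48 in soma, and 3.76, 3.69 and 3.86 in ESC. The groups were tight and well apart, and soma as well as ESC stood far above the 75th percentile. Pdgfa was 2.40-fold higher in ESC (soma minus ESC -1.26 ± 0.059, SE, n = 3 per group, limma adjusted p 5.1e-06). The other probe gave -1.26 as well, with 2.30, 2.30 and 2.32 in soma and 3.60, 3.47 and 3.64 in ESC. A difference larger in this direction was seen for 3796 genes (19.3%), so among all genes the difference was not extreme.

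Pdgfb, whose ligand binds both receptors, was also higher in ESC, on the single probe of its pair that could be tested. That probe read -0.90, -0.98 and -0.99 in soma, and -0.15, 0.25 and 0.03 in ESC. The ESC arrays were spread more widely than the soma arrays, and the groups did not overlap. Pdgfb was 2.0-fold higher in ESC (soma minus ESC -1.0 ± 0.11, SE, n = 3 per group, limma adjusted p 0.000226). The other Pdgfb probe was well above background on soma 2 alone and was not tested. The log2 ratio of Pdgfa to Pdgfb within an array differed between groups by -0.26 with overlapping values (two-sided exact permutation p 0.3, also 0.3 after adjustment over 3 ratios). No difference could reach 0.05 in this test with 3 arrays per group.

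Pdgfc, a ligand of receptor alpha that needs cleavage outside the cell, had the smallest difference. It read 0.03, -0.15 and -0.32 in soma, and 0.59, 0.43 and 0.46 in ESC. The soma arrays were the more spread group and all lay below the ESC arrays. Pdgfc was 1.56-fold higher in ESC (soma minus ESC -0.64 ± 0.10, SE, n = 3 per group, limma adjusted p 0.00139). The separation appears after scaling. Before it the processed signals of 1363, 1253 and 998 in soma and 1530.2, 1309.5 and 1319 in ESC overlapped. The log2 ratio of Pdgfa to Pdgfc within an array, which a single factor per array cannot change, differed by -0.62 with no overlap (two-sided exact permutation p 0.1, 0.15 after adjustment). Quantile normalization can change this ratio, and brought the differences closer together, at -0.88 for Pdgfa and -0.63 for Pdgfc.

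Pdgfd, the ligand gene of receptor beta that also needs cleavage, was the single ligand gene higher in soma, and it was dim. It read -4.16, -3.98 and -4.29 in soma, at processed signals of 63.5 to 87.9, and every soma array was well above background. In ESC it read -6.99, -7.46 and -7.14, and no ESC array was well above background. The ESC level is therefore known only as a bound. Set on each ESC array against the dimmest probe that still passed the background mark, Pdgfd was at least 1.99-fold higher in soma (fitted difference 3.05 ± 0.14, SE, n = 3 per group, limma adjusted p 5.24e-06). The probe passed the filter on dim probes only through soma, so its direction was fixed by that filter. Under normexp background correction the fitted difference was 0.75, below that bound. The bounds given here and below hold for the 75th percentile scaling only, since the normexp difference was smaller than the bound for all 44 member and list genes that have one.

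**Figure D3:**
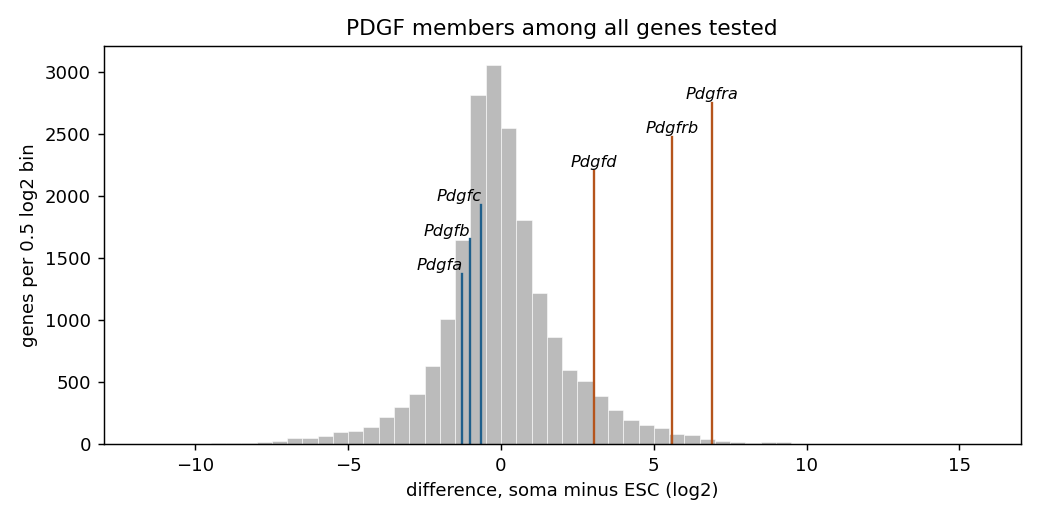
Distribution of the soma minus ESC difference over 19670 genes (horizontal axis, log2; vertical axis, genes per bin), with the 6 PDGF genes as lines whose height has no meaning. Pdgfra (6.91) and Pdgfrb (5.60) lie in the far right tail and the ligand genes Pdgfa, Pdgfb and Pdgfc in the bulk.

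The directions did not depend on the scaling. The median of all genes shifted by 0.12 with quantile normalization, by -0.20 when arrays were set to their median and by 0.20 when spike-in probes set the scale. Relative to the median of all genes, Pdgfra stood at 7.06, Pdgfrb at 5.74 and Pdgfd at 3.20, and Pdgfa, Pdgfb and Pdgfc at -1.12, -0.86 and -0.50. Quantile normalization placed them relative to that median at 7.13, 5.78, 3.03, -0.86, -1.03 and -0.60. There Pdgfb, not Pdgfa, had the larger difference, so the order of these ligands is not settled. Within the slide that holds both groups, where 3 ESC arrays face soma 3 alone (n = 1), the differences were 7.10 for Pdgfra, 5.73 for Pdgfrb, 2.90 for Pdgfd, -1.28 for Pdgfa, -1.03 for Pdgfb and -0.81 for Pdgfc.

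**Figure D4:**
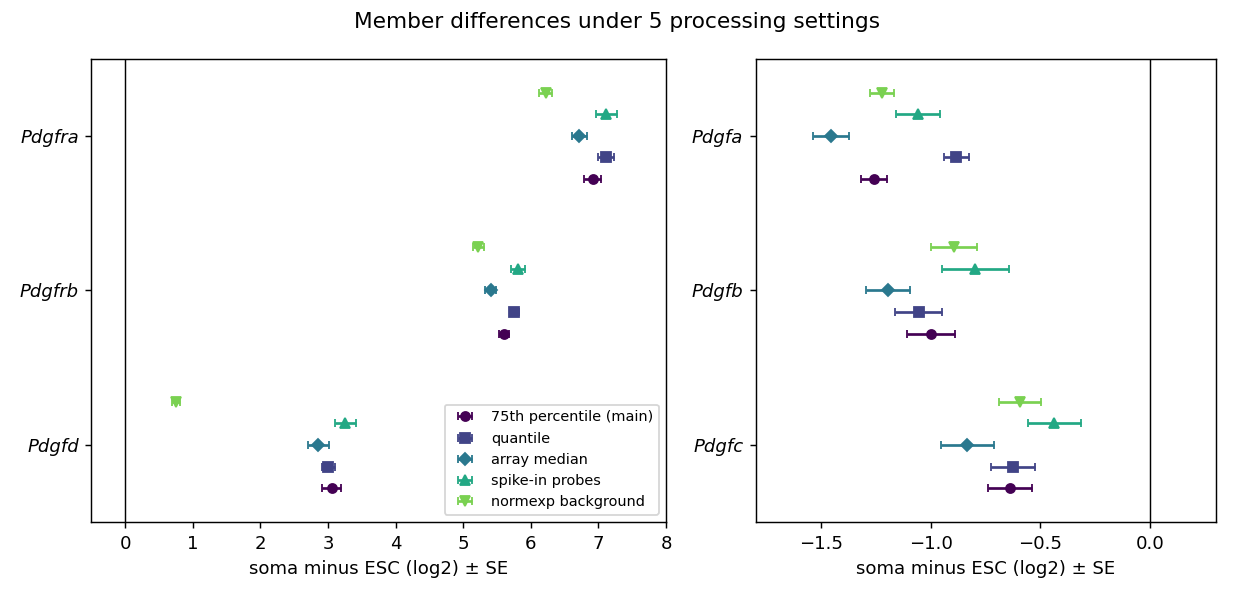
Soma minus ESC difference (horizontal axis, log2, with the SE of the fit) of the 3 genes higher in soma and the 3 higher in ESC, under 4 scalings and under normexp background correction. Each gene stays on its side of 0 in all 5, and under normexp Pdgfd drops from 3.05 to 0.75 and Pdgfra from 6.91 to 6.22.

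Cells that could carry the receptors were traced by marker lists. Soma was higher for 15 of 16 interstitial markers, while the other did not pass, with a median difference of 5.53 (5.30 with genes not well above background in ESC at their bound), and the summed signal relative to the 75th percentile was 373 to 424 on soma arrays and 39.4 to 42.9 on ESC arrays. Maf was among those not well above background on any ESC array. Nr2f2, a factor of interstitial cells that was well above background on 2 ESC arrays, was 507-fold higher in soma (157-fold under normexp). Its probe passed the filter on dim probes through soma alone. Of 12 mural and smooth muscle markers soma was higher for 9 and ESC for 3, the median was 1.53 and the sums of 57.1 to 64.5 in soma and 49.9 to 65.9 in ESC. Abcc9 and Rgs5, which are typical of pericytes, were higher in soma by at least 16.5-fold and 15.5-fold (8.41-fold and 5.29-fold under normexp). With Myh11 and Kcnj8 they were not well above background on any ESC array. These genes passed the filter on dim probes through soma alone, which fixed their direction. The markers Mcam, Tagln and Cnn1 were higher in ESC, by 1.83-fold, 1.80-fold and 5.78-fold. Fetal Leydig markers had a median of 3.89 (3.11 with bounds) and sums of 153 to 158 in soma and 11.8 to 12.6 in ESC, with Cyp11a1, Hsd3b1 and Lhcgr not well above background on any ESC array. The part of each cell type in the receptor difference was not tested.

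Pdgfra is also a marker of primitive endoderm, a cell type that ESC cultures can form. Among 13 tested primitive endoderm markers soma was higher for 9 and ESC for 3, and 1 did not pass, at a median of 1.48 and with sums of 117 to 125 in soma and 27.4 to 28.5 in ESC. Several of them are shared with the gonad, such as Gata4, which was 141-fold higher in soma (66.0-fold under normexp). In ESC the marker Sox7 stayed below the background mark throughout, whereas Gata4 and Gata6 were above it on all 3 arrays. Foxa2 was at least 42.4-fold higher in ESC than in soma (16.4-fold under normexp). Foxa2 and the other markers higher in ESC, 3 in all, passed the filter on dim probes through ESC alone, and Sox7 passed through soma alone. This fixed their direction. The part of such cells in the low Pdgfra signal of ESC was not tested. Vessel and platelet cells are known sources of PDGF-B. Among 12 endothelial markers ESC was higher for 3, soma for the 7 given above and 2 did not pass, with sums of 12.5 to 15.1 in soma and 18.3 to 19.1 in ESC. Cdh5, Tie1, Emcn and Sox18 were not well above background on any ESC array, and the filter fixed their direction. The endothelial markers Pecam1, Tek and Egfl7 were higher in ESC, by 1.91-fold, 1.39-fold and 1.99-fold. Pdgfb itself was lower in soma, and the part of these cells in its level was not tested.

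Proteases that ready the ligands were mostly higher in soma. Soma was higher for 8 and ESC for 4 of 12 processing genes, where 38.3% and 46.6% of all genes were. The median was 1.38 beside -0.14 over all genes. Pcsk5 and Plau passed the filter on dim probes through soma alone and St14 through ESC alone, which fixed their direction. Plat, whose tissue plasminogen activator cleaves PDGF-C, was 22.8-fold higher in soma (log2 difference 4.51 ± 0.051, SE, n = 3 per group, limma adjusted p 1.51e-07), or 9.89-fold under normexp. Plau, whose urokinase cleaves PDGF-D, was at least 6.98-fold higher in soma (3.88-fold under normexp), while its receptor gene Plaur was 4.18-fold higher in ESC. St14, which encodes matriptase, another protease of PDGF-D, went the other way and was at least 71.2-fold higher in ESC (19.9-fold under normexp). The proprotein convertase genes Furin and Pcsk5, which serve the A and B chains, were higher in soma by 3.04-fold and at least 174-fold, the latter 57.5-fold under normexp.

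Coreceptors and extracellular partners of PDGF also stood mostly higher in soma. Soma was higher for 11 and ESC for 2 of 15 tested, where 38.3% and 46.6% of all genes were, and 2 did not pass. The median was 1.48 beside -0.14 over all genes. Nrp1 and S1pr1 passed the filter on dim probes through soma alone, which fixed their direction. Lrp1, an endocytic receptor that binds PDGF receptor beta, was 8.69-fold higher in soma. Nrp1, a coreceptor, was at least 6.88-fold higher in soma (2.88-fold under normexp), and its relative Nrp2 was higher in ESC, at a soma minus ESC difference of -0.68. Cspg4, the NG2 proteoglycan that binds PDGF-A on mural and progenitor cells, was 30.9-fold higher in soma (15.8-fold under normexp). Pzp, a relative of alpha-2-macroglobulin, was 7.40-fold higher in ESC (3.68-fold under normexp), and Pdgfrl, a receptor-like gene, differed by -0.14 ± 0.18 (SE, n = 3 per group, limma adjusted p 0.494).

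The signalling genes inside the cell were split. Of 28 adaptor, kinase and effector genes tested soma was higher for 13 and ESC for 11, 4 did not pass, and the median was 0.14, or -0.06 when arrays were set to their median. Fyn, a SRC-family kinase, and Pik3r1, the regulatory subunit of PI3 kinase that docks on the receptors, were 5.95-fold and 4.80-fold higher in soma, the latter 2.79-fold under normexp. Pik3cb, a catalytic subunit, and Map2k1, the MEK1 kinase gene, were 7.61-fold and 3.11-fold higher in ESC. Of 14 attenuators tested soma was higher for 6 and ESC for 5, 3 did not pass, and the median was 0.06, with the sign turned at -0.050 under quantile normalization and -0.14 when arrays were set to their median. Among them the ubiquitin ligase gene Cblb and the phosphatase gene Ptprk were 2.44-fold and 2.20-fold higher in soma. Slc9a3r1, which encodes the scaffold NHERF1, was 3.22-fold and the adaptor gene Grb7 at least 158-fold higher in ESC, the latter 47.7-fold under normexp. Grb7 passed the filter on dim probes through ESC alone, which fixed its direction. Over all 6 pathway lists, 85 of 100 tested genes passed, 51 higher in soma and 34 in ESC, close to the 84.9% of all genes.

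**Figure D5:**
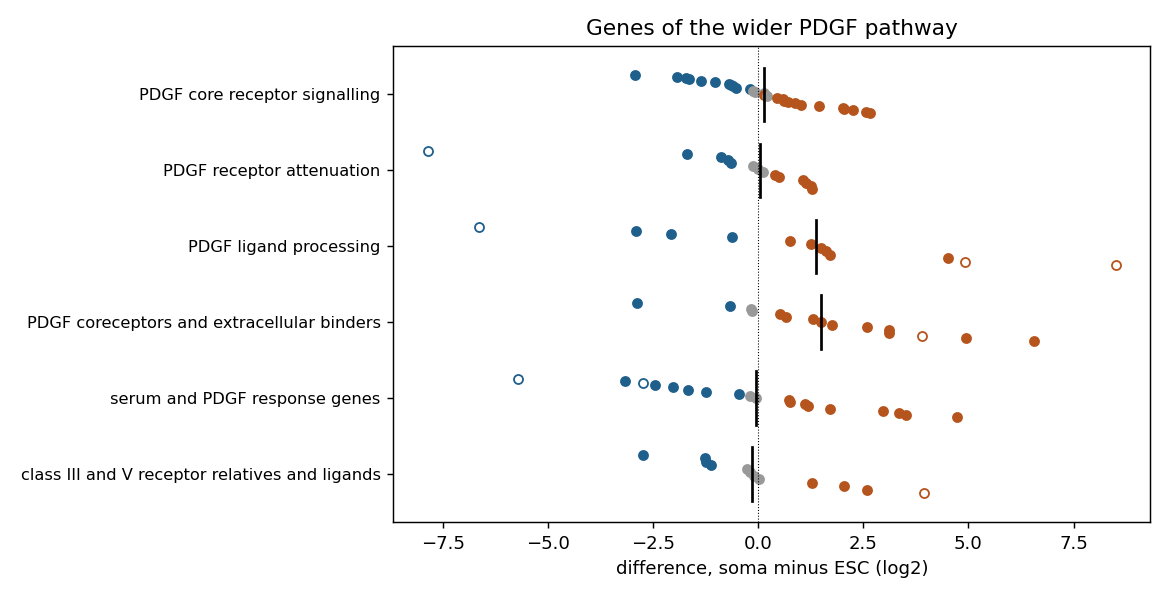
Soma minus ESC difference (horizontal axis, log2) of each tested gene in 6 lists of the wider PDGF pathway, ordered within a list, with the list's median as a black bar. Orange points are higher in soma, blue points higher in ESC and grey points did not pass, and open points were not well above background in 1 group. The ligand processing list (median 1.38) and the coreceptor list (median 1.48) lie to the right of the others.

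The receptor relatives were split, and no test compared them with the PDGF receptors. Kit, the stem cell factor receptor of germ cells, was 2.35-fold higher in ESC, and Csf1r, the receptor of macrophages, was 5.98-fold higher in soma, with differences of 0.61 to 3.18 over its 3 probes. Flt1 and Kdr, the receptors of VEGF, differed by -0.20 and -0.26 and did not pass (limma adjusted p 0.445 and 0.185). Flt3 had no probe that passed the filter on dim probes. Kitl, the ligand gene of Kit, was at least 9.47-fold higher in soma (3.44-fold under normexp). It passed that filter through soma alone, which fixed its direction. Of 12 tested relatives and their ligands soma was higher for 4 and ESC for 4, 4 did not pass, and the median was -0.15, or 0.049 when spike-in probes set the scale. Vegfc was 6.66-fold and Il34 2.18-fold higher in ESC, and Pgf was 4.09-fold higher in soma (2.55-fold under normexp).

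The genes with the most similar pattern over the 6 arrays were found by the Euclidean distance between mean-centred log2 values, among 11954 candidates that have a symbol and a signal well above background on every array. Hoxc6 (distance 0.35) and Mfap2 (0.37) were closest to Pdgfra, and Rassf5 (0.12) and Lsp1 (0.18) to Pdgfrb. Cep128 (0.060) and Nup205 (0.069) were closest to Pdgfa, Tmsb15b2 (0.076) and Pgp (0.12) to Pdgfc. Ap1s2 (0.15) and Slc16a10 (0.17) were closest to Pdgfb, although another Ap1s2 probe was higher in soma by 0.36. With 2 groups this distance reflects mainly the size of the group difference, and many genes lie near a small one.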

How the data were processed

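Cy3-labelled RNA of 3 soma and 3 ESC samples was hybridised to 1 array each, per the labels' protocols. The deposited intensity values (processed signals) were written by Feature Extraction, version 10.7.3.1 per the file headers, and its settings are not given in the sources used here. A value table deposited beside them is on a log2 scale, and its scale and centring are not stated. At least 99.97% of its values on each array lay within 0.01 of the log2 processed signal less the array's 75th percentile and the probe's median over 6 arrays, and its column medians were 0.055, -0.25, -0.065, 0.16, -0.088 and 0.063 for soma 1 to 3 and ESC 1 to 3. It served as an alternative.

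Spots were scaled by the 75th percentile on the log2 scale. Spots of a probe were averaged, leaving out 1377 control spots and outlier-marked spots (15 probe values). A probe was kept if well above background (over 50% of its spots) on all arrays of 1 group, which gave 24150 probes. Transcript identifiers matched a RefSeq gene table of GRCm38.p6 for 66.1% of gene probes, and the array's design names an earlier build. A gene was its brightest kept probe. limma 3.58.1 in R 4.3.3 compared soma minus ESC over 19670 genes, two-sided, at an adjusted p of 0.05. Errors of differences are SEs of that fit. Where every array of a group was below that mark, the fold is a bound: on each dim array the higher of its own signal and the lowest among probes well above background was used. The fit was tested on simulated data of 19670 genes, with 50 genes changed by each log2 difference of 0.25, 0.5, 1 and 2. Of these 4%, 36%, 64% and 86% were recovered. Far fewer genes changed there than the 84.9% that passed in the data, so these rates do not carry over to the fit.

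The members, lists and rules were chosen with earlier results of these data known. Named genes are the members, the 2 smallest adjusted p per direction in each pathway list, the 2 largest differences in each marker list (printed for some lists), the 2 nearest patterns per member well above background throughout, and Kit, Csf1r, Flt3, Nrp1, Lrp1, Plat, Plau and St14. Furin, Pcsk5, Kitl, Pdgfrl, S1pr1, Flt1, Kdr, Gata6 and the markers named as not well above background in ESC were chosen after their values were seen. p-values rest on the samples being separate biological replicates, as the series says. Some marker genes are not reported here by name.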

Additional observations from a re-analysis of the deposited data

How the results depend on the processing

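Pdgfa kept its direction and its call under all 22 alternatives run and Pdgfra and Pdgfrb under all 21, while Pdgfb and Pdgfc did so under 20 of 21. These include the shared slide, where soma is 1 array whose spread is assumed to equal that of ESC. The direction of Pdgfd was fixed by the filter and is not counted. The exception was limma's test against a log2 difference of 1, where Pdgfb (-1.0) and Pdgfc (-0.64) no longer passed, at an adjusted p of 1, against a range from 3.99e-05 and 0.000356 upward over their alternatives. That stricter test called 7592 genes in place of 16709 and 51 of 100 pathway genes in place of 85. Pdgfd has no value among probes well above background on all 6 arrays, since its ESC signal is dim. Leaving out 1 array at a time gave -0.73 to -0.55 for Pdgfc and 6.82 to 7.01 for Pdgfra, and no member lost its call. Samples that share a replicate number did not deviate together (r -0.047, 0.067 and 0.027), and with the replicate number as a block 16476 genes, 83 pathway genes and all 6 members passed. Scan as a random block, chosen after seeing the data, gave 16798 genes. The low signal over background limits Pdgfd and the bounded genes.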

Other observations

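Genes that respond within hours to serum and PDGF in cultured fibroblasts were split between the groups. Soma was higher for 9 and ESC for 8 of 19 tested, and 2 did not pass. The AP-1 genes Fosb and Fosl2 were 26.5-fold and 11.5-fold higher in soma, the first 16-fold under normexp. Of the other AP-1 genes Fos and Jun were higher in soma, Fosl1 was higher in ESC, at least 2.35-fold (1.82-fold under normexp), and Junb did not pass (difference -0.19, limma adjusted p 0.318). Klf10, a zinc finger repressor, was 5.47-fold higher in ESC, and the chemokine gene Ccl7 at least 16.9-fold (6.88-fold under normexp). Fosl1 and Ccl7 passed the filter on dim probes through ESC alone, which fixed their direction. The median was -0.055, and it was 0.15 when spike-in probes set the scale, so the list as a whole has no settled direction. Such genes also respond to tissue handling, which was not tested. Fos, Jun, Fosl1 and Junb were named after their values were seen.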
